A study of Homo sapiens with 16 samples.

Results

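The E2F transcription factors, the RB family and MYBL2 were followed in MCF10A cells, a nontransformed human breast epithelial line, during treatment with CP724,714, a small molecule inhibitor of the HER2 kinase. The genes examined were E2F1, E2F2, E2F3, E2F4, E2F7, E2F8, RB1, RBL1, RBL2 and MYBL2, that is 10 of the 18190 gene symbols on the array, and every row bearing one of these symbols was kept separate. The cells grew in serum-free medium with insulin and EGF, and 1 µM CP724,714 was added to parallel cultures from which RNA was taken every 3 hours, from 0 hours (untreated) to 45 hours. Each of the 16 time points was measured on 1 Illumina array, so no time point had a replicate, and no series without inhibitor was analysed here. The medium was also changed at the start of treatment. Fresh medium, time in culture and inhibition of HER2 therefore cannot be told apart.

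E2F proteins bind DNA, most of them with a DP partner, and control genes needed for DNA replication. RB1, RBL1 (p107) and RBL2 (p130) bind E2F proteins and hold these genes down until cyclin-dependent kinases phosphorylate them on entry into the cell cycle. The MuvB complex works with RBL1 or RBL2 and E2F4 in resting cells, and with MYBL2 and later FOXM1 in cycling cells, where it drives genes of mitosis.

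Levels are given as log2 intensity after background correction and quantile normalization, and a probe counted as above background on an array where its detection p, from the negative control beads, was under 0.05. Array medians of the deposited intensities lay between 210 and 254, and between 10325 and 10889 rows were above background. The 10 genes had 11 rows. Of these, 10 were above background on at least 3 of the 16 arrays and were tested; the row left out was the second RBL1 probe (ILMN_24316), which was above background on 0 arrays. Levels of different probes were not compared with each other. For tests the arrays were put into 4 consecutive windows of 4 arrays (0-9, 12-21, 24-33 and 36-45 hours), whose spread also holds any change within a window.

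Of the 10 genes, 9 had an entry in the RefSeq promoter table (build GRCh38.p14), which gives 250 bases before and 50 after a start site; E2F8 was not among them, and the entry of RB1 lay inside the gene. The stretches of E2F1, E2F2 and RBL1 are shown because these genes rose and later fell and hold letters of the E2F motif. Those of E2F7, which also rose and later fell, and RBL2, which rose late, are shown beside them. Over the 16 arrays E2F2 was about as close to E2F7 (Pearson's r = 0.873), whose stretch held no such letters, as to RBL1 (0.866). Capitals mark matches, on either strand, to the motifs TTTCCCGC, TTTCGCGC, TTTGCCGC and TTTGGCGC, or to the same motifs with a final G (TTTCCCGG, TTTCGCGG, TTTGCCGG and TTTGGCGG). The 4 forms with a final G were added after the sequences of these genes had been seen, and neighbouring matches in E2F1 overlap.
E2F1, chr20:33686336-33686635, minus strand: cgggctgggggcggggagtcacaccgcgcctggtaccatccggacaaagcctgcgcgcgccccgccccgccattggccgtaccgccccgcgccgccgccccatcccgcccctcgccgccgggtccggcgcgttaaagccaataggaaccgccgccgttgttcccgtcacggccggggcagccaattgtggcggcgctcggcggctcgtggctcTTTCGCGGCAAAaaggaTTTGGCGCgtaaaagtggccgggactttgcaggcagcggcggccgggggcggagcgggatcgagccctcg
E2F2, chr1:23531184-23531483, minus strand: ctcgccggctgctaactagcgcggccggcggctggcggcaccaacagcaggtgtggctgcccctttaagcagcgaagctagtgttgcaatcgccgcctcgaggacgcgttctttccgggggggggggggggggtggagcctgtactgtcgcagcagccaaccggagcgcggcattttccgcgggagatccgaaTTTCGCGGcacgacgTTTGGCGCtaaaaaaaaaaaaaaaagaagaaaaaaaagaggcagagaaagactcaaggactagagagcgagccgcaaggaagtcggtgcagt
RBL1, chr20:37095948-37096247, minus strand: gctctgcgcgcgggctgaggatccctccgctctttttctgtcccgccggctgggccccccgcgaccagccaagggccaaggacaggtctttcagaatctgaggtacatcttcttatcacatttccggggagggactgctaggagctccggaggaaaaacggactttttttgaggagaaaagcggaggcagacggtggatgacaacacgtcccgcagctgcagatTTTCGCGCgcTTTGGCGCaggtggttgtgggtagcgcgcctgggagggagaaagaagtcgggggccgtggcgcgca
E2F7, chr12:77065520-77065819, minus strand: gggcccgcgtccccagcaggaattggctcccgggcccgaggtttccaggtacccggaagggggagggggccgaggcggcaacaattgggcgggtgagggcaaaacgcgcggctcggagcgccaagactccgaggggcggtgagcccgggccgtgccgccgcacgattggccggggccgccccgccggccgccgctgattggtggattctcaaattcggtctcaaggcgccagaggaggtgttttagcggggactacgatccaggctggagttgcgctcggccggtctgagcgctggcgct
RBL2, chr16:53434221-53434520, plus strand: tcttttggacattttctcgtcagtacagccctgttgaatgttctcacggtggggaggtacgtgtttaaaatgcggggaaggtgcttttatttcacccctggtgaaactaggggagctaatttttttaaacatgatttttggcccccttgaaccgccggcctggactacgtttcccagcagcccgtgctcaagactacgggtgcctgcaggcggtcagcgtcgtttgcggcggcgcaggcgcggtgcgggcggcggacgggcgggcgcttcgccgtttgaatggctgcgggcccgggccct

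Among the 11 promoter entries of the 9 genes, 4 held a match to a motif with a final C (E2F1, E2F2, RBL1 and 1 of the entries of E2F3), and the forms with a final G added no further entry. Of all 35116 promoters in the table, 3.31% held a form with a final C and 6.19% held either form. TTTGGCGC stood in E2F1, E2F2 and RBL1, which were shown partly because they hold such letters. It was found in 0.652% of all promoters, a share that therefore tests nothing about these genes. The stretches of E2F7 and RBL2 held none of these letters, which says nothing about binding outside or inside them.

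Over the whole series, 8 of the 10 tested probes showed time-dependent expression in a spline fit with limma (adjusted p under 0.05), against 54.6% of all 11957 tested probes. MYBL2 (adjusted p = 0.437) and RB1 (adjusted p = 0.523) did not pass. The call of E2F8 was close to the threshold (adjusted p = 0.0426). It was lost on leaving out any of 10 single arrays, with adjusted p up to 0.104 without the 42 hour array, and also with no background correction (0.0506) and with no intensity trend in the prior (0.0580). E2F3 (adjusted p = 0.0273) was no longer called without the 3 hour array (0.0748) or the 15 hour array (0.0620) or with a spline of 5 degrees of freedom (0.0809), and E2F7 (adjusted p = 0.0232) not without the 42 hour array (0.0576). The count of 8 thus ran from 6 to 8 when single arrays were left out. How many of all probes were called in those fits was not recorded.

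E2F1 and E2F2 encode activating E2F proteins. E2F1 measured 8.21, 8.07, 7.50 and 8.75 at 0, 3, 6 and 9 hours, then 8.96, 9.21, 8.98 and 9.08 from 12 to 21 hours. It stayed at 8.94, 9.19, 8.91 and 8.78 from 24 to 33 hours and measured 7.47, 7.07, 6.99 and 6.81 from 36 to 45 hours. The middle windows were thus high and close together, and every array of the last window was below every array before it. E2F2 was also high in the middle windows and low in the last, but its lowest array was that at 6 hours and its last window overlapped the first: 9.39, 8.34, 7.60 and 9.28 in the first window, 9.82, 9.82, 9.97 and 9.74 in the second, 9.82, 10.04, 9.63 and 9.54 in the third and 8.26, 7.93, 7.97 and 7.95 in the last. For both genes the steepest drop between neighbouring arrays was from 33 to 36 hours, by 1.31 for E2F1 and 1.27 for E2F2 on the log2 scale.

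E2F3, a further activator, moved over a smaller range, from 9.89 at 6 hours to 10.47 at 15 hours. Its window means were 10.03 ± 0.23, 10.36 ± 0.08, 10.31 ± 0.11 and 10.06 ± 0.10 (SD, n = 4 arrays each). The first window overlapped the second because the 9 hour array was already at 10.37.

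E2F4 encodes an E2F that acts mainly as a repressor with RBL1 and RBL2. It measured 10.77, 10.95, 11.41 and 11.62 in the first window, 11.43, 11.35, 11.27 and 11.24 in the second, 11.33, 11.27, 11.20 and 11.05 in the third and 10.76, 10.74, 10.79 and 10.69 in the last. It was the only one of the 10 tested probes with its highest value at 9 hours, and its level at the end was close to that at 0 hours.

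E2F7 and E2F8 encode atypical E2F proteins, which repress E2F target genes without a DP partner. E2F7 measured 7.64 at 0 hours but 5.90, 6.28 and 6.14 at 3, 6 and 9 hours, and then 8.08, 7.54, 7.45 and 6.99 from 12 to 21 hours. From 24 to 33 hours it was at 7.65, 7.61, 7.46 and 7.13, and from 36 to 45 hours at 5.99, 5.99, 5.94 and 5.96, where it was above background on 0 of 4 arrays. The untreated array and the middle windows were high, and the arrays from 3 to 9 hours and from 36 hours on were low. E2F8 measured 7.17, 6.01, 5.83 and 5.93 in the first window and 7.70, 7.27, 7.03 and 6.98 in the second. It then measured 7.39, 7.20, 7.13 and 7.14 in the third window and 6.86, 5.87, 5.87 and 6.23 in the last. At 36 hours, where E2F7 was already below background, E2F8 was still above it.

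**Figure D1:**
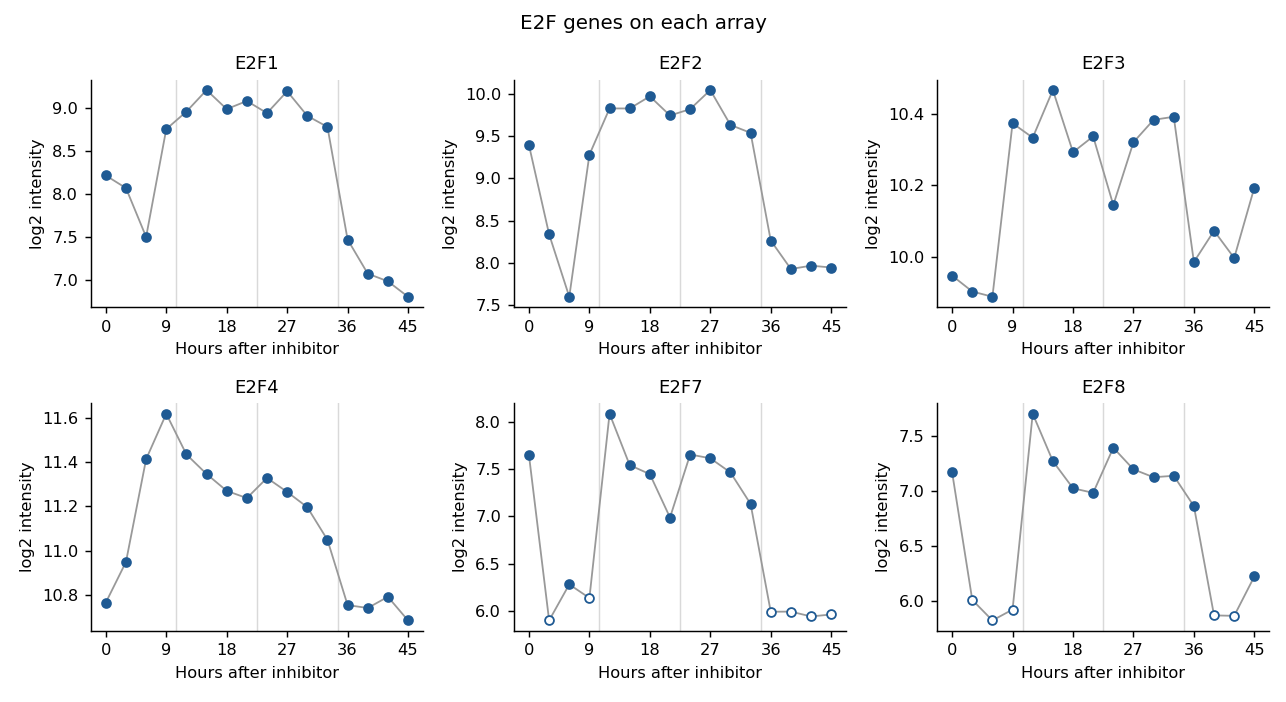
Log2 intensity (vertical axes, scaled for each gene) of 6 E2F genes against hours after addition of the inhibitor (horizontal axes), 1 point per array; filled points were above background, open points were not, and grey lines separate the 4 windows. E2F1 and E2F2 are high from 12 to 33 hours and low from 36 hours, and E2F7 is below background on all 4 arrays from 36 hours.

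Among the RB family, RBL1 followed E2F1 and RBL2 did not. RBL1 (ILMN_522) measured 6.53, 6.58, 6.65 and 7.05 in the first window, 7.30, 7.42, 7.15 and 7.11 in the second, 7.21, 7.21, 7.22 and 6.99 in the third and 6.65, 6.27, 6.00 and 6.13 in the last, where the 42 hour array was not above background. RBL2 measured 8.78, 8.65, 8.89 and 9.29 in the first window, 9.33, 9.30, 9.26 and 9.17 in the second, 9.19, 9.10, 9.31 and 9.34 in the third and 9.66, 9.59, 9.61 and 9.61 in the last. The 4 last arrays of RBL2 were above all its earlier ones, while the 4 last arrays of RBL1 overlapped its first window and were below the middle ones.

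RB1, the founding member of the family, was above background on 11 of 16 arrays and ranged from 5.80 at 18 hours to 6.54 at 39 hours, with all 4 windows overlapping. MYBL2, an activator that joins the MuvB complex in S phase, was above background on 9 of 16 arrays and ranged from 5.61 at 45 hours to 6.41 at 21 hours. It was above background on 1, 3, 4 and 1 of the 4 arrays of the successive windows. Both probes lay so near background that a change of moderate size may not have been detectable.

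**Figure D2:**
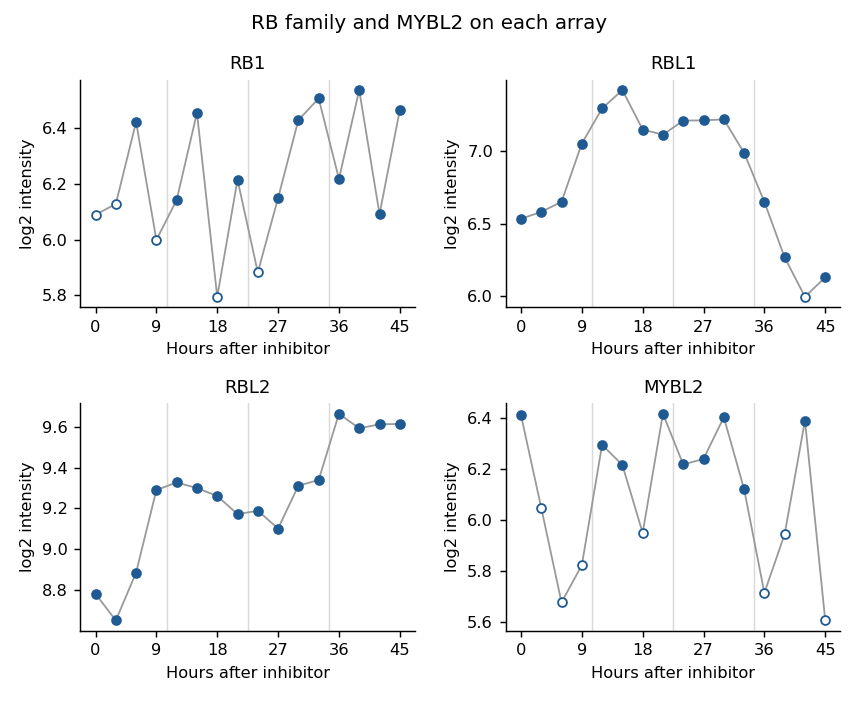
Log2 intensity (vertical axes, scaled for each gene) of RB1, RBL1 (ILMN_522), RBL2 and MYBL2 against hours after addition of the inhibitor (horizontal axes), 1 point per array; filled points were above background, open points were not, and grey lines separate the windows. RBL1 falls and RBL2 rises after 33 hours, to 6.13 and 9.61 at 45 hours.

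The earliest comparison, of 6-9 against 0-3 hours in a limma fit of 8 pairs of arrays, asked what changed within the first window. E2F4 rose by 0.66 ± 0.10 (log2, SE; 2 arrays against 2, adjusted p = 0.000149, limma). This was 1 of 10 tested probes higher and 0 lower, against 13.2% higher and 11.5% lower among all probes. RBL2 differed by 0.37 ± 0.13 with adjusted p = 0.0521 (limma), short of the threshold, and was called with median scaling (0.0299), with detection on 8 of 16 arrays (0.0476) and with no intensity trend (0.0497). Arrays within a pair differed widely for E2F1 and E2F2, which were low at 6 hours and high at 9 hours. Leaving out 1 of these 4 arrays leaves 1 array on its side, whose spread is then taken from the other pairs, so calls made in this way rest on a single array. Without the 6 hour array E2F1, E2F3 and RBL2 were called higher, and without the 9 hour array E2F2 was called lower. E2F7 and E2F8 were called lower without the 3 hour array, but at 6-9 hours they were above background on 1 and 0 of 2 arrays, so the size of their change was not measured.

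From 0-9 to 12-21 hours, 7 of the 10 probes rose and 0 fell, against 15.1% higher and 14.4% lower among all tested probes. E2F2 rose 2.28-fold (log2 change 1.19 ± 0.27 SE, n = 4 arrays a window, adjusted p = 0.00334, limma), E2F1 1.90-fold (0.92 ± 0.20, adjusted p = 0.00228) and RBL1 1.45-fold (0.54 ± 0.15, adjusted p = 0.0109). E2F7 and E2F8 were above background on 2 and 1 of the 4 arrays of the earlier window; with the other arrays set at the lowest signal above background they rose at least 1.93-fold and 1.80-fold. These bounds hold for background-corrected intensities: with no background correction the fitted rises were 1.38-fold for E2F7, 1.37-fold for E2F8 and 1.18-fold for RBL1, all still called. The windows of E2F1, E2F2 and RBL1 did not overlap, and those of E2F7 and E2F8 overlapped through their untreated arrays. E2F3 (0.33 ± 0.10, adjusted p = 0.0243, limma; 0.50 with median scaling) and RBL2 (0.36 ± 0.12, adjusted p = 0.0247) rose too. E2F3 was no longer called without the 3, 6 or 15 hour array (adjusted p = 0.0732, 0.0688 and 0.0750), RBL2 not without the 0, 3, 12 or 15 hour array (0.0537, 0.0895, 0.0622 and 0.0588) and E2F7 not without the 3 or 12 hour array (0.0501 and 0.0504). E2F4, MYBL2 and RB1 were not called.

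Between 12-21 and 24-33 hours, 0 of the 10 probes were called by limma and 0 had an unadjusted p under 0.05; among all probes 0% were called higher and 0.0251% lower. The changes ranged from -0.11 for E2F4 to 0.09 for RB1.

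From 24-33 to 36-45 hours, 6 of the 10 probes fell and 1 rose, against 18.7% lower and 19.3% higher among all tested probes. E2F1 fell 3.65-fold (log2 change -1.87 ± 0.20 SE, n = 4 arrays a window, adjusted p = 1.88e-06, limma) and E2F2 3.32-fold (-1.73 ± 0.27, adjusted p = 8.18e-05). E2F7 was at least 2.60-fold lower (adjusted p = 0.000544), a bound in which each array of the last window was set at the lowest signal above background. E2F8, above background on 2 of 4 late arrays, fell at least 1.87-fold in the same way (adjusted p = 0.00617, limma). RBL1, above background on 3 of 4, likewise fell at least 1.83-fold (fitted log2 change -0.90 ± 0.15, adjusted p = 0.000135, limma). E2F4 fell 1.38-fold (-0.47 ± 0.14, adjusted p = 0.0113, limma). RBL2 rose 1.31-fold (0.38 ± 0.12, adjusted p = 0.0134), a call lost with median scaling in place of quantile normalization (0.28, adjusted p = 0.0907). The last window of each of these called probes did not overlap the one before. How many of all probes had such windows was not counted, so this adds no support to the calls. With no background correction the falls were all still called but smaller, 2.17-fold for E2F1, 1.59-fold for E2F7, 1.36-fold for E2F8 and 1.31-fold for RBL1, so sizes and bounds depend on the correction. E2F3 (-0.25 ± 0.10, adjusted p = 0.0712) missed the threshold; it was called without the 9 hour array (adjusted p = 0.0172), without the 24 hour array (0.0461) and with median scaling (0.0128). MYBL2 was not called (adjusted p = 0.147, limma). It was called without the 42 hour array, the only late one on which it was above background, so that call rests on signal not above background and the size of its change was not measured.

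Set against the start of the series, 36-45 hours differed from 0-9 hours in 4 of the 10 probes, 3 lower and 1 higher, against 15.0% lower and 16.2% higher among all probes. E2F1 was 2.07-fold lower (-1.05 ± 0.20, n = 4 arrays a window, adjusted p = 0.000685, limma) and RBL2 1.64-fold higher (0.72 ± 0.12, adjusted p = 0.000147); for both genes the windows did not overlap. E2F4 (-0.44 ± 0.14, adjusted p = 0.0188, limma) and RBL1 (-0.44 ± 0.15, adjusted p = 0.0299, limma) were lower with overlapping windows. With the 42 hour array set at the lowest signal above background, RBL1 differed by -0.42. E2F4 was no longer called without the 6 or 9 hour array (0.0631 and 0.0553), with median scaling (0.171), with only the 8 arrays compared in the fit (0.0899), without the difference of the middle windows (-0.33, adjusted p = 0.288, limma) or for 0 and 3 against 42 and 45 hours, where it differed by -0.12 (0.394). Nor was RBL1 without the 9, 39, 42 or 45 hour array (0.0959, 0.0568, 0.102 and 0.0809), with median scaling (0.0589), with no detection filter (0.0607) or in the last 3 of these comparisons (0.0981, 0.297 with a change of -0.36, and 0.0533). The comparison without the middle windows' difference adds the change from 0-9 to 12-21 hours to that from 24-33 to 36-45 hours, and its SE is 1.41 times as large. The calls of E2F1 and RBL2 held in all of them, though with no background correction E2F1 was 1.49-fold and RBL1 1.14-fold lower. E2F2, whose first window ran from 7.60 to 9.39, differed by -0.63 ± 0.27 (adjusted p = 0.0890) and was called without the 6 hour array (-0.98, adjusted p = 0.00145).

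**Figure D3:**
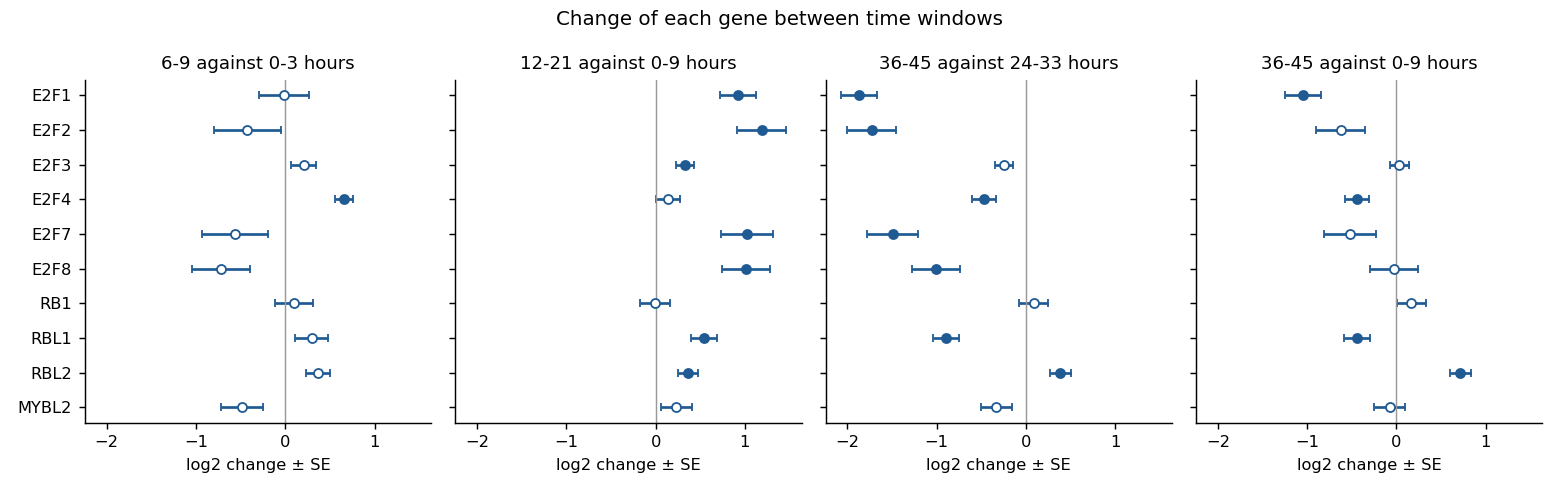
Log2 change ± SE (horizontal axes) of the 10 tested probes (rows) in 4 comparisons of time windows (panels); filled points had an adjusted p under 0.05. E2F1 is at 0.92 in the second panel and -1.87 in the third, and RBL2 is right of 0 in both.

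The courses were also described by Pearson's r over the 16 arrays, which share time and array. E2F1 had r = 0.95 with RBL1 and 0.95 with E2F2, E2F7 had r = 0.91 with E2F8, and RBL2 had r = -0.35 with E2F1. E2F7 and E2F8 were above background on 10 and 11 of the 16 arrays, so r values of these 2 genes rest partly on signal not above background. Over all tested probes, the courses most like that of E2F1 were RFC3 (0.99), Pfs2 (0.98) and CDT1 (0.98), and those most like E2F2 were C20orf7 (0.97), CDT1 (0.96) and EXO1 (0.96). Those most like RBL1 were FLJ20364 (0.98), TUBA6 (0.97) and TRIP13 (0.97), with symbols as on the array. RFC3 loads the replication clamp, CDT1 licenses origins and EXO1 is a DNA exonuclease.

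E2F7 was most like C15orf42 (0.95), PARP2 (0.94) and NEIL3 (0.94), and E2F8 most like RRM1 (0.93), BRMS1L (0.93) and NEIL3 (0.92). E2F4 was most like HSPC196 (0.97), C9orf114 (0.97) and CIRH1A (0.97), and E2F3 most like DDX27 (0.93), FLJ20272 (0.91) and C3orf21 (0.91). For RBL2 they were SRD5A1 (0.95), PNLIPRP3 (0.94) and ACOT11 (0.94). The highest values for MYBL2 (PHLPPL 0.83, FLJ10803 0.82, USF2 0.79) and RB1 (SLC2A4 0.74, STX16 0.73, ZKSCAN1 0.72) were lower, for probes close to background.

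Further genes of the pathway were taken from lists, each by its brightest row, matched through older symbols where the array used them. Of E2F5, E2F6 and the DP partners TFDP1 and TFDP2, 0 of 4 were called from 0-9 to 12-21 hours, against 15.1% higher and 14.4% lower among all probes. This count was 1 with median scaling (2805 higher and 1030 lower among all probes, in place of 1807 and 1720) and with cyclic loess (1767 and 1739). It was also 1 without the 0 hour array (1772 and 1744) or the 36 hour array (1742 and 1655). At 6-9 against 0-3 hours (2 arrays against 2) 1 was higher and 1 lower, against 13.2% and 11.5% of all probes. These were E2F5 (0.84 ± 0.15, adjusted p = 0.000644, limma) and TFDP1 (-0.28 ± 0.10, adjusted p = 0.0409, limma). From 24-33 to 36-45 hours 2 of 4 fell, against 18.7%, TFDP1 by 0.43 ± 0.09 and E2F6 by 0.31 ± 0.09 (log2, SE). E2F5 (-0.21 ± 0.18) and TFDP2 (0.15 ± 0.14) were not called. Of the 4, 1 was called without the 24 or the 27 hour array, where lower calls among all probes were 1922 and 1891, in place of 2233. Against 0-9 hours E2F6 was lower at 36-45 hours (-0.26 ± 0.09, adjusted p = 0.0434, limma), a call lost with median scaling (adjusted p = 0.481), with no detection filter (0.0797), with only the 8 arrays compared (0.116), without the difference of the middle windows (0.302) and for 0 and 3 against 42 and 45 hours (0.489). It was also lost without any of 9 single arrays, with adjusted p up to 0.105 without the 39 hour array.

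Of the MuvB core, its kinase DYRK1A and FOXM1, 5 of 7 genes were tested. FOXM1, the forkhead factor of the G2/M genes, fell by 1.13 ± 0.20 from 24-33 to 36-45 hours (adjusted p = 0.000266, limma), and LIN9 by 0.80 ± 0.12. LIN52, above background on 1 of 4 late arrays, fell by at least 0.48 with the other 3 set at the lowest signal above background. LIN9 had risen from 0-9 to 12-21 hours (0.48 ± 0.12, adjusted p = 0.00690, limma). LIN37 (0.32 ± 0.19) and DYRK1A (0.18 ± 0.13) were not called in the late comparison. DYRK1A was lower at 6-9 against 0-3 hours (-0.63 ± 0.10, adjusted p = 0.000208, limma), 1 of 5 tested, against 11.5% of all probes. RBBP4 was not above background on any array, and LIN54 had no row under its symbol. At 36-45 against 0-9 hours FOXM1 (-1.06 ± 0.20) and LIN9 (-0.38 ± 0.12) were lower. FOXM1 was no longer called without the difference of the middle windows (-0.85, adjusted p = 0.0583, limma). LIN9 was not without that difference (0.240), without the 9 hour array (0.0681) or the 36 hour array (0.0545), with median scaling (0.199), with only the 8 arrays compared (0.0739) or for 0 and 3 against 42 and 45 hours (0.183).

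Among 14 tested cyclins, kinases and inhibitors acting on RB proteins, 3 rose and 7 fell from 24-33 to 36-45 hours, against 19.3% higher and 18.7% lower among all probes. From 0-9 to 12-21 hours 2 rose and 2 fell, which is near the 15.1% and 14.4% of all probes, while at 6-9 against 0-3 hours (2 arrays against 2) 6 were higher and 4 lower, against 13.2% and 11.5%. The 3 genes with the largest called change from 0-9 to 36-45 hours were CDC25A, a phosphatase that activates CDK2 (-1.38 ± 0.30), CKS1B, a CDK subunit (-0.74 ± 0.11), and the CDK inhibitor CDKN1B (0.70 ± 0.22, adjusted p = 0.0223, limma). CDKN1B was no longer called without the 3, 6, 9 or 42 hour array (adjusted p = 0.0647, 0.0811, 0.0534 and 0.0557), with only the 8 arrays compared (0.109) or for 0 and 3 against 42 and 45 hours (0.298). Without the difference of the middle windows neither CDKN1B (0.51, adjusted p = 0.317, limma) nor CDC25A (-1.23, adjusted p = 0.0647) was called. Without the 9 hour array 7 genes of this list were called from 0-9 to 12-21 hours, and without the 12 hour array 2. Calls among all probes were then 2227 higher and 2061 lower, and 1483 and 1427, in place of 1807 and 1720. With combined rows left out, 2 genes of the list in place of 4 were called in that comparison (1676 and 1597 among all probes). In the late one 6 in place of 10 were called (2154 and 2083, in place of 2309 and 2233). In 9 of the 18 genes of the list, among them CDC25A, the brightest row combined several kinds of bead, and the detection p of combined rows need not follow their intensity. For that reason CCNE2 and CDKN2D, which did not pass the filter, are not described as absent. CDKN2A and CDKN2B, whose locus MCF10A cells are known to have lost, were at mean log2 intensities between 5.61 and 5.86 and between 5.50 and 5.57 over the windows. CDKN2A was above background on 3 of 16 arrays and was not called (adjusted p = 0.494 at 36-45 against 0-9 hours, limma), and CDKN2B was above background on 0; both are combined rows, so these counts say little.

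Most of the G1/S genes with known E2F sites changed in the same direction as E2F1 in these comparisons. Of 22 tested, 17 rose and 1 fell from 0-9 to 12-21 hours (15.1% and 14.4% of all probes), with a median log2 change of 0.70 against -0.00058 over all probes. From 24-33 to 36-45 hours 20 fell and 1 rose (18.7% and 19.3%), with a median of -1.29 against -0.0021. In the latter comparison the exceptions were POLA1, a DNA polymerase subunit (-0.62 ± 0.14 from 0-9 to 12-21 hours, then 0.51 ± 0.14), and GINS1, which was not called; POLA1 was also the gene that fell earlier. CDC6 is among the 17 and the 20, but it was above background on 1, 4, 1 and 0 of the 4 arrays of the successive windows, so its fall was not measured and its early rise was at least 0.14 with arrays below background set as above. At 36-45 against 0-9 hours 14 were lower and 0 higher (15.0% and 16.2% of all probes), but 4 were called without the difference of the middle windows. There the median change was -0.39 in place of -0.55 and the SE larger, and calls among all probes also fell, from 1932 higher and 1798 lower to 868 and 749. The largest changes were those of TK1 (-1.35 ± 0.17), RRM2 (-1.35 ± 0.23) and TYMS (-1.05 ± 0.17), which supply nucleotides. Between 12-21 and 24-33 hours 0 of 22 were called by limma, with 1 at an unadjusted p under 0.05.

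Of 18 tested G2/M genes bound by MYBL2-MuvB and FOXM1, 12 rose and 0 fell from 0-9 to 12-21 hours (median log2 change 0.58), against the same 15.1% and 14.4% and median of -0.00058 among all probes. All 18 fell from 24-33 to 36-45 hours (median -1.18), against 18.7% and -0.0021. Within the first window, at 6-9 against 0-3 hours, 5 were lower and 0 higher (median -0.42), against 11.5% and 13.2% of all probes. The count of 12 was 6 without the 9 hour array (2227 higher and 2061 lower among all probes, in place of 1807 and 1720). It was 5 without the 15 hour array (1445 and 1383), and 7 without the 6 hour array (1699 and 1628) or the 12 hour array (1483 and 1427). At 36-45 against 0-9 hours 13 were lower and 0 higher, against 15.0% and 16.2%, with CCNA2, the cyclin of S phase and G2 (-0.91 ± 0.19), the mitotic kinesin KIF20A (-0.90 ± 0.20) and the kinase AURKB (-0.89 ± 0.23) changing most. Without the difference of the middle windows, where fewer of all probes were called, 2 were called. These 3 then changed by -0.81, -0.66 and -0.81 and were not called (adjusted p = 0.0527, 0.145 and 0.117, limma). These lists were chosen with results of these data known, so their direction is not independent evidence.

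**Figure D4:**
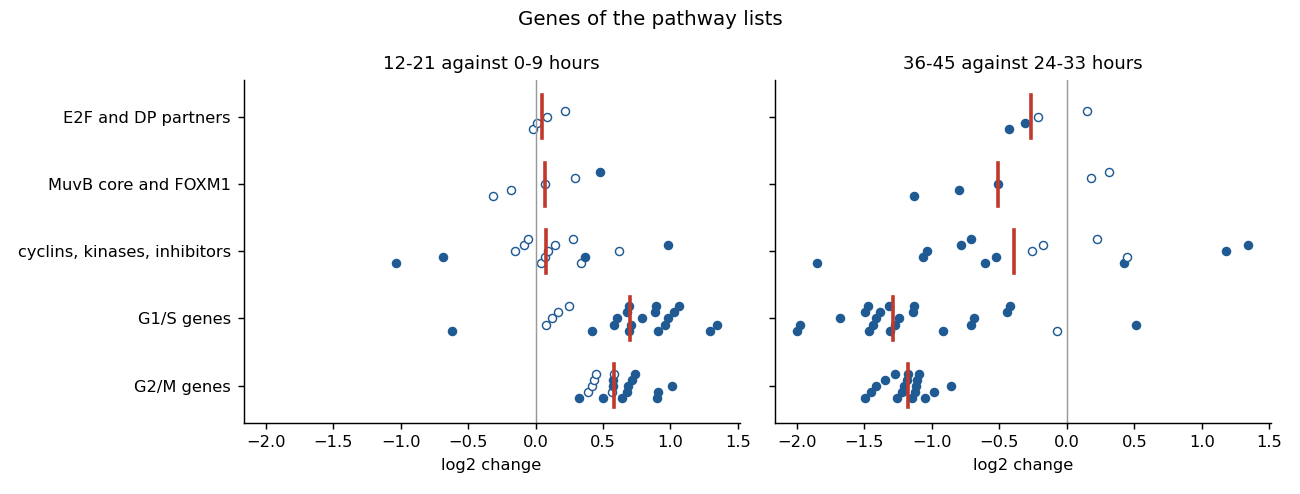
Log2 change (horizontal axes) of each tested gene of 5 pathway lists (rows) from 0-9 to 12-21 hours (left) and from 24-33 to 36-45 hours (right); filled points had an adjusted p under 0.05 and red bars are list medians. The medians of the G1/S genes are 0.70 and -1.29, those of the G2/M genes 0.58 and -1.18.

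Of the mammary epithelial markers, KRT5, KRT17, CDH1 and EGFR were above background on all 16 arrays, TP63 on 10 and KRT14 on 1. TP63, above background on 0 of 4 arrays at 0-9 hours, was at least 2.55-fold higher at 36-45 hours (adjusted p = 6.71e-07, limma). KRT17 rose by 0.69 ± 0.25 (log2, SE), so 2 of 5 tested were higher, against 16.2% of all probes. CDH1 (-0.28 ± 0.14), KRT5 (-0.04 ± 0.08) and EGFR (0.15 ± 0.10) were not called. Against 24-33 hours TP63, KRT17 (0.73 ± 0.25) and EGFR (0.25 ± 0.10, adjusted p = 0.0443, limma) were higher at 36-45 hours, 3 of 5 tested, against 19.3% of all probes. At 6-9 against 0-3 hours (2 arrays against 2) KRT17 (1.10 ± 0.18), KRT5 (0.35 ± 0.07) and EGFR (0.34 ± 0.11) were higher, 3 of 5 tested, against 13.2% of all probes. From 0-9 to 12-21 hours 1 of 5 was higher and 1 lower, against 15.1% and 14.4% of all probes. TP63 was at least 1.17-fold higher (adjusted p = 0.00932, limma) and CDH1 lower by 0.51 ± 0.14 (adjusted p = 0.0126, limma). Of 6 markers of other cell types, COL1A1, COL1A2, ESR1 and PGR were above background on 0 arrays, PTPRC on 5 and PECAM1 on 15. PECAM1, above background on 3 of 4 arrays at 0-9 hours, was higher than there at 12-21 hours (adjusted p = 0.000298, limma) and at 36-45 hours (adjusted p = 0.000296, limma). With the other array set at the lowest signal above background, these log2 changes were at least 0.84 and 0.81. PECAM1 was not called from 24-33 to 36-45 hours (-0.14 ± 0.15). The part of all these markers in the changes of the E2F and RB genes was not tested. Fewer cycling cells and less RNA of these genes per cell cannot be told apart in bulk RNA.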

How the data were processed

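Per the study's methods, RNA from parallel MCF10A cultures was hybridized to Illumina human Ref8v2 arrays. The labels give the cell line, the inhibitor and the hour of 16 samples, 1 per time point. The 0 hour label also names the inhibitor, and that sample was taken as untreated because its treatment time is 0 hours. The authors deposited 20589 rows of linear intensity, not yet normalized. The deposited detection p-value sets each row against the negative control beads of its array; the summary software and annotation build are not given in the sources used here. Of these rows, 19092 were single bead types by their detection p (whole multiples of 1/708 within 0.001) and 1497 combined several. How the detection p of combined rows was made is not given in these sources. At 0 hours 130 combined rows with an intensity above 400, against 0 single rows, were not above background. All 11 rows of the E2F, RB and MYBL2 genes were single. Intensities were corrected by normexp (offset 16, background inferred from the detection p), quantile-normalized and put on the log2 scale. With limma 3.58.1 in R 4.3.3, a spline with 3 degrees of freedom, 4 windows and 8 pairs of arrays were fitted to 11957 probes above background (detection p under 0.05) on at least 3 arrays, with Benjamini-Hochberg adjustment over all of them. The methods were run on simulated data with independent noise around flat levels and, for some probes, a step at the start of the last window. Those data held no drift within a window and no likeness between neighbouring arrays, so the run does not cover these features of the series. Named list genes were every member of the first pair of lists, and from the others the 3 with the largest called change from 0-9 to 36-45 hours, with CDKN2A and CDKN2B; others were chosen after their values were seen. The genes and lists were chosen with earlier results of these data known.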

Additional observations from a re-analysis of the deposited data

Results flagged for a closer look

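Within the 40 windows of 4 arrays examined for the 10 tested probes, 4 held an array whose gap to the nearest other, divided by the range, passed Dixon's critical value for 4 arrays; chance gives about 1 in 20. E2F8 was at 7.17 at 0 hours, against 5.83 to 6.01 on the other arrays of the first window. E2F3 was at 10.37 at 9 hours, against 9.89 to 9.95 on the other arrays of that window. RBL1 was at 6.99 at 33 hours, against 7.21 to 7.22 before. E2F2 was at 8.26 at 36 hours, against 7.93 to 7.97 after. The arrays of a window are different time points, so such gaps include change over time; the cause was not tested.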

How the results depend on the processing

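Of the 40 log2 changes of the 10 tested probes in the 4 comparisons with calls, 19 were called, and 0 of these changed sign under any alternative run; 11 kept their call under all of them. No block for chips could be run, since neither file nor labels name chips, and no alternative with RBL1's other probe as a test was possible, since it was above background on 0 arrays. No paired analysis was possible because each time point has 1 array. Leaving out the combined rows, an alternative chosen after seeing the data, gave the same counts for the 10 probes in all 6 tests; among cyclins, kinases and inhibitors 2 were called at 12-21 against 0-9 hours in place of 4, and 6 at 36-45 against 24-33 hours in place of 10.

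The number of probes with time-dependent expression was 8, but 5 at a threshold of 0.01, 1 with a straight line in time, and 6 without the 3, 15 or 42 hour array. How many of all probes were called in these other spline fits was not recorded, so the counts cannot be set against the whole array. For 36-45 against 0-9 hours it was 4, but 2 with median scaling, at 0.01, with only the 8 arrays compared, without the difference of the middle windows, and for 0 and 3 against 42 and 45 hours; without single arrays it ran from 2 to 4. For 12-21 against 0-9 hours it was 7, but 3 at 0.01 (1048 higher and 1045 lower among all probes, in place of 1807 and 1720). Without single arrays it ran from 4 (without the 3 hour array, 1398 and 1342 among all probes) to 7. For 6-9 against 0-3 hours it was 1, but 2 with median scaling, with detection on 8 of 16 arrays and with no intensity trend, and from 1 to 4 (without the 6 hour array) without single arrays. Without the difference of the middle windows, 4 G1/S genes were called at 36-45 against 0-9 hours and 2 G2/M genes; with only the 8 arrays compared, 9 G1/S genes. Calls among all probes were then 868 higher and 749 lower, and 1356 and 1119, in place of 1932 and 1798. In that comparison they were 2793 and 1029 with median scaling, 1269 and 1044 at 0.01, and 1930 and 1695 for 0 and 3 against 42 and 45 hours. For 6-9 against 0-3 hours they were 1583 and 1374, but 1794 and 1007 with median scaling. They were 1556 and 1349 with detection on 8 of 16 arrays and 1488 and 1256 with no intensity trend.

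Median scaling moved the share of higher calls among all probes from 51.8% to 73.1% at 36-45 against 0-9 hours (1798 lower calls against 1029), from 51.2% to 73.1% at 12-21 against 0-9 hours (1807 and 1720 against 2805 and 1030), from 50.8% to 37% at 36-45 against 24-33 hours and from 53.5% to 64% at 6-9 against 0-3 hours.

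Of the 21 changes that were not called, 11 turned sign under some alternative. At 6-9 against 0-3 hours E2F1 was at 0.022 with no background correction, 0.00022 with an offset of 50, 0.079 with median scaling and 0.0039 with cyclic loess. Without single arrays, which can leave 1 array on a side and includes arrays not above background for E2F7 and RB1, it ran from -0.64 to 0.61, E2F2 from -1.26 to 0.41, E2F3 from -0.037 to 0.45, E2F7 from -1.45 to 0.31 and RB1 from -0.11 to 0.32. At 36-45 against 0-9 hours E2F8 was at 0.014 with median scaling and 0.0056 without the difference of the middle windows. Without single arrays it ran from -0.24 to 0.29, E2F3 from -0.013 to 0.15 and MYBL2 from -0.23 to 0.065. RB1 ran from -0.11 to 0.11 at 12-21 against 0-9 hours and from -0.034 to 0.17 at 36-45 against 24-33 hours, and E2F4 from -0.0048 to 0.28 at 12-21 against 0-9 hours. The cause was not tested. Signal over background limits MYBL2, RB1, E2F7 and E2F8, and the single array per time point limits every value.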

Other observations

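E2F1 and E2F2 made their largest rise between neighbouring arrays from 6 to 9 hours (1.25 and 1.68 on the log2 scale). E2F7 and E2F8, not above background at 9 hours, rose by at least 1.92 and 1.54 from 9 to 12 hours, and their highest values stood at 12 hours. From 0 to 3 hours, with neither above background at 3 hours, E2F7 and E2F8 dropped by at least 1.46 and 0.99, while E2F1 dropped by 0.15 and E2F2 by 1.05. These steps are differences between single arrays and were not tested.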
